A study of Mus musculus with 14 samples.

Results

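The Hippo pathway genes examined here were Yap1, Wwtr1, Tead1, Tead3, Lats1, Lats2, Nf2, Amotl2, Ajuba and Ankrd1. They were chosen by name for their roles in the pathway, and all 10 were measured among the 16124 genes of the table. Mammary epithelial cells from 7 WT mice and 7 mice overexpressing Usp22 (OE/OE) gave 1 RNA-seq library each, and the mice were matched as littermate pairs numbered 1, 3, 4, 5, 6, 7 and 8. All 14 mice were nulliparous females aged 3.5 months. The OE/OE mice were homozygous for a Flag-myc-tagged Usp22 cDNA knocked into ROSA26 behind the CAGGS promoter. Its stop cassette was removed with Zp3-cre, which acts in the oocyte, so the transgene was on in every tissue and stromal cells carried it too. The cells came from organoids separated from stroma by brief spins, without sorting.

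The Hippo pathway is a kinase cascade that limits organ growth. Upstream scaffolds such as Nf2 bring the Lats kinases to the membrane, and active Lats1 and Lats2 phosphorylate the co-activators YAP and TAZ, which are then kept out of the nucleus. When the cascade is off, YAP and TAZ bind the TEAD proteins and switch on targets such as Ankrd1, Ccn1 and Ccn2, and several targets, Amotl2, Lats2 and Ajuba among them, feed back on the cascade itself. In the mammary gland, TAZ is known for its part in basal cells. Phosphorylation, the step that controls YAP and TAZ, leaves no direct trace in RNA levels, so the values below concern transcripts only.

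TEAD proteins recognise the letters GGAATG, or CATTCC on the other strand. These were searched on both strands in the RefSeq promoter windows (GRCm38.p6), which run from 250 bases before to 50 bases after each annotated start. The windows of Ankrd1, Amotl2 and Lats2 are printed because these 3 genes varied together over the pairs. Each is given 5′ to 3′ on the gene's strand, in lower case with matches in capitals. They lie at chr19:36119795-36120094 (minus strand), chr9:102717554-102717853 (plus strand) and, for the first of the windows of Lats2, chr14:57746074-57746373 (minus strand).
Ankrd1: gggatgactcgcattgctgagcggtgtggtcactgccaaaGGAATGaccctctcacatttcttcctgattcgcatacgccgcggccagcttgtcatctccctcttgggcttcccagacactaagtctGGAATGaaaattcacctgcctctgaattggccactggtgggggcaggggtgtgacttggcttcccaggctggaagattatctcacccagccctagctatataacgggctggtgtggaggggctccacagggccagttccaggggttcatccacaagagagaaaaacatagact
Amotl2: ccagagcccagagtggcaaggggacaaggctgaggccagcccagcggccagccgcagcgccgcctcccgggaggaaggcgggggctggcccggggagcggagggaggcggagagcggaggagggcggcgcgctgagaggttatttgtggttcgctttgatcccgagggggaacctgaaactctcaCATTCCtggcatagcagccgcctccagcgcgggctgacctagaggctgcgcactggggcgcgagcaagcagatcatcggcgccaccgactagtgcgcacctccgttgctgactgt
Lats2: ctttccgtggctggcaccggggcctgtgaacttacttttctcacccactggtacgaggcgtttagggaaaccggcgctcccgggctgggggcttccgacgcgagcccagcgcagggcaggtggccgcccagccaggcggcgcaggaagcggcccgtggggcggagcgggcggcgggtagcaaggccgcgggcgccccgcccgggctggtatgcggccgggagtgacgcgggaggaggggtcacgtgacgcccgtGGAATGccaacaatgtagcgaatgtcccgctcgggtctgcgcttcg
Counting the start as base 1 and the bases before it as negative, the matches began at -210 and -123 in Ankrd1, at -65 in Amotl2 and at 5 in Lats2. Of the 9 members with a window, 7 held a match in at least 1 window, and 9 of their 14 windows did, while 14.7% of all 32851 promoter windows held one. Yap1 (-141), both windows of Wwtr1 (-136 and -170, the same site), Ajuba (-186 and -164) and Tead3 were the others, and the windows of Lats1 and Nf2 held none. Tead1 had no entry. The AP-1 letters TGANTCA were in 7.81% of all windows and in 0 of the 14 member windows. Windows of 1 gene can overlap, as in Wwtr1 and Tead3, so the 14 are not independent. The share of all genes with a match was not computed, and several members were listed as known YAP and TAZ targets. A match is only a description of these letters, and no binding was measured.

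Usp22 separated the groups in every library, with 3500 to 5380 normalized counts in WT and 74948 to 144288 in OE/OE. The fragments counted on genes came to between 20125106 and 41835978 per library. Summed markers of luminal, basal and other epithelial cells were detected in every library, and so were those of fibroblasts, adipocytes and vessels. Genes were kept only with 10 or more fragments in at least 7 libraries, so no single marker could be at 0 everywhere. All 8 fibroblast markers lay below WT (3 at an unadjusted p of at most 0.05 by limma), with a summed level of 91820 to 188420 normalized counts in WT and 59034 to 139621 in OE/OE. The 7 adipocyte markers also lay below WT (5 past that threshold), with sums of 8638 to 28990 and 4657 to 26540. Over all genes, 1.85% were lower in OE/OE past that threshold. The summed levels did not pass, with exact sign-flip p of 0.125 for fibroblast markers (lower in 5 of 7 pairs) and 0.422 for adipocyte markers (lower in 4 of 7). All 8 endothelial and all 7 macrophage markers lay below WT as well, and 8 immediate-early genes of tissue dissociation all lay above. None of these genes passed the unadjusted threshold, and their summed levels went both ways over the littermates. Summed endothelial markers were down in OE/OE in 3 pairs and up in 4 (p 0.812 by exact sign flips). For macrophage markers it was 4 down and 3 up (p 0.391 by that test). The immediate-early sum was down in 2 pairs and up in 5 (p 0.641, same test). Pair 4 stood apart. In its OE/OE mouse, summed endothelial markers differed from the littermate by -1.73 on the log2 scale and pericyte markers by -1.11. Both sums (18741 and 9106 normalized counts) were the lowest of all mice. Cell cycle markers differed by 3.41, between the highest sum of all mice (11652) and the lowest in WT (1096). Adipocyte markers differed by -2.16, but here the WT mouse had the highest sum of all mice (28990). The OE/OE mouse, at 6506, was above that of pair 5 (4657). In RNA from mixed cells, fewer cells of a type and less RNA per cell cannot be told apart.

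No member passed the threshold for a difference between genotypes. With littermates as a block in limma, 0 of the 10 members reached an unadjusted p of at most 0.05, and over all genes 3.81% did (1.95% higher and 1.85% lower in OE/OE). After Benjamini-Hochberg adjustment over the 16124 genes every member had an adjusted p of 1.00 in limma, and 0.0124% of genes, 2 in number, passed 0.05. Unadjusted counts in edgeR and DESeq2 were also 0 of 10. The estimates leaned slightly upward, with 9 of the 10 above 0 and a median log2 change of 0.06, beside 49.6% of all genes above 0 and a median of -0.00147. Yap1, Wwtr1 and Ajuba were higher in OE/OE in at least 6 of the 7 pairs, which held for 7.32% of all genes, and no member was lower in at least 6 pairs (6.79% of genes). None moved one way in all 7 pairs (1.51% of genes).

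**Figure D1:**
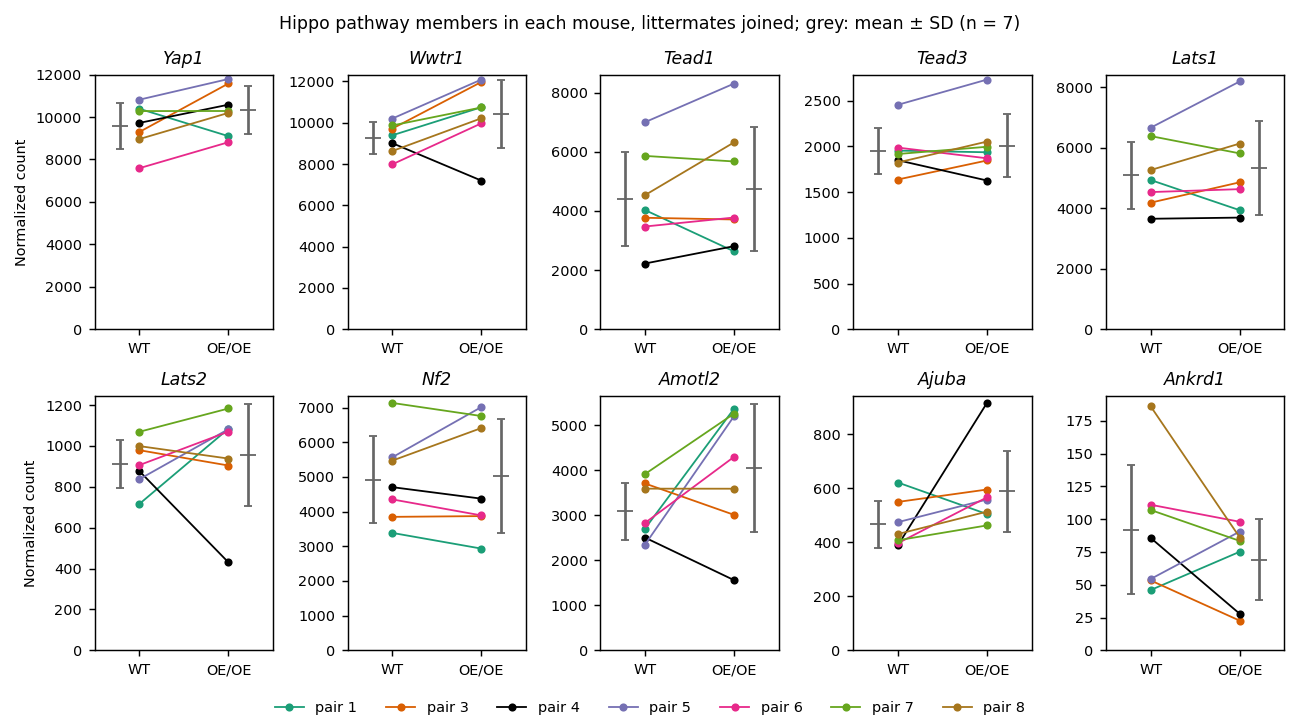
Normalized count (vertical axes, linear from 0) of the 10 members in each mouse, with littermates joined by a line in the colour of their pair and grey bars for the mean ± SD of 7 mice per genotype. The genotypes overlapped for every member, and pair 4 (black) had the lowest OE/OE value for Wwtr1 and Lats2 and the highest for Ajuba.

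The upstream members were Nf2 and Amotl2. Nf2 (merlin, chr11:4765845-4849536) ranged from 3387 to 7134 normalized counts in WT (median 4706) and from 2934 to 7014 in OE/OE (median 4374). The groups covered nearly the same span, and littermates resembled each other: pair 1 held the lowest mouse of each genotype, and pairs 5, 7 and 8 the 3 highest of each. The log2 change was 0.00 ± 0.08 (SE, 7 pairs), with a 95% interval of -0.18 to 0.19 and a p of 0.975 in limma's test.

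Amotl2 (chr9:102716672-102733418), an angiomotin family protein that holds YAP at cell junctions and is itself a YAP target, was more scattered. In WT it was at 2707, 3710, 2507, 2352, 2833, 3920 and 3595 normalized counts in pairs 1, 3, 4, 5, 6, 7 and 8, and in OE/OE at 5377, 3012, 1560, 5210, 4304, 5265 and 3594. Pairs 1, 5, 6 and 7 had the 4 highest mice, all OE/OE and above every WT mouse, while the lowest of all 14 was the OE/OE mouse of pair 4. The WT mean was 3089 ± 636 and the OE/OE mean 4046 ± 1422 (SD, n = 7). This log2 change of 0.31 ± 0.21 had a p of 0.170 in limma and of 0.25 by exact sign flips of the 7 pairs (two-sided). Without pair 4 the change was 0.48, with an unadjusted p of 0.0231 and an adjusted p of 0.543 in limma, and the exact sign-flip p over the other 6 pairs was 0.125. It was 0.20 without pair 1 (unadjusted p 0.383) and 0.17 without pair 5 (unadjusted p 0.424). Leaving out pair 4 raised the share of all genes at or under 0.05 to 8.47%.

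Neither Lats kinase passed the threshold. Lats1 (chr10:7681214-7716460) had 3655 to 6667 normalized counts in WT (median 4937) and 3694 to 8199 in OE/OE (median 4862). Its lowest and highest mice in both genotypes came from pairs 4 and 5, and it was higher in OE/OE in 5 of 7 pairs, by 0.05 ± 0.09 on the log2 scale (95% interval -0.15 to 0.24).

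Lats2 (chr14:57689662-57758388), the kinase of the pair that is also a YAP target, had 716, 979, 877, 837, 906, 1069 and 999 normalized counts in the WT mice of pairs 1, 3, 4, 5, 6, 7 and 8. The OE/OE mice had 1084, 904, 430, 1082, 1070, 1183 and 938. The OE/OE mouse of pair 4 was far below the other 13, among which the genotypes overlapped. The log2 change was 0.02 ± 0.17 (limma p 0.919), and 0.19 without pair 4 (unadjusted p 0.0906). Of the 6971 exon bases of Lats2, 42.4% are shared with Gm49361 on the same strand, a gene that is not in the table, so its counts are uncertain.

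Ajuba (chr14:54567472-54577558), a LIM protein that restrains the Lats kinases, came nearest to the threshold. Its WT values were 622, 550, 389, 475, 397, 408 and 431 normalized counts in pairs 1, 3, 4, 5, 6, 7 and 8, and the OE/OE values were 505, 596, 917, 559, 567, 463 and 514. Only pair 1 had the lower value in OE/OE, and apart from the OE/OE mouse of pair 4 the genotypes overlapped between 463 and 596. The WT mean was 467 ± 88.3 and the OE/OE mean 589 ± 151 (SD, n = 7), and the log2 change was 0.32 ± 0.16 with a 95% interval of -0.03 to 0.67. Limma's unadjusted p was 0.0717, and the exact sign-flip p was 0.0938. Without pair 4 the change was 0.17 (unadjusted p 0.147). It passed 0.05 without pair 1 (0.42, unadjusted p 0.0229 and adjusted p 0.658 in limma, exact sign-flip p 0.0312, 7.42% of all genes called), with median centring (0.34, unadjusted p 0.0497, exact sign-flip p 0.0625, 3.91% called) and with a basal cell score in the fit (0.38, unadjusted p 0.0257, 5.11% called). Since only pair 1 was lower in OE/OE, leaving it out fixed the sign-flip p of 0.0312 in advance. With a fibroblast score the change was 0.11 (unadjusted p 0.55), and with an adipocyte score -0.16 (unadjusted p 0.305). Pair 1 also had the largest drop in summed basal markers, -0.51 on the log2 scale, against -0.04 to 0.08 in the other 6 pairs, and the part of that in the Ajuba values was not tested beyond this fit.

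The co-activators varied least between mice of a genotype among the 10 members. Yap1 (chr9:7931999-8004596) had 7588 to 10816 normalized counts in WT (median 9722) and 8813 to 11791 in OE/OE (median 10283). It was higher in OE/OE in 6 of 7 pairs, although in pair 7 the mice differed by less than 0.01 on the log2 scale, and the groups overlapped over most of their range. Its log2 change was 0.11 ± 0.08 (95% interval -0.06 to 0.28, limma p 0.183), and only 5.41% of all genes had a smaller SD between mice of a genotype. The exact sign-flip p was 0.141, and 0.0312 without pair 1, where the change was 0.16 and limma's unadjusted p was 0.0589. Pair 1 was the only pair below 0, so leaving it out fixed that sign-flip p in advance. With any other pair left out, the exact sign-flip p was 0.156 to 0.281 and limma's unadjusted p was 0.19 to 0.384. With a fibroblast score in the fit the change was 0.023 (unadjusted limma p 0.814).

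Wwtr1 (chr3:57455649-57575910), which encodes TAZ, had 9389, 9711, 9013, 10198, 7982, 9866 and 8626 normalized counts in the WT mice of pairs 1, 3, 4, 5, 6, 7 and 8. In OE/OE it had 10748, 11971, 7198, 12088, 9969, 10738 and 10214. It was higher in OE/OE in every pair but 4, by 0.12 to 0.32 on the log2 scale, and pair 4 held the lowest mouse of all 14. Over all pairs the log2 change was 0.16 ± 0.09 (95% interval -0.04 to 0.36), with an unadjusted p of 0.109 and an adjusted p of 1.00 in limma and an exact sign-flip p of 0.141. Without pair 4 it was 0.24, with an unadjusted p of 0.00496 and an adjusted p of 0.523 in limma. The exact sign-flip p over the other 6 pairs was 0.0312, the smallest that 6 pairs allow. Pair 4 was the only pair below 0, so leaving it out fixed this sign-flip p in advance. With any other pair left out, limma's unadjusted p was 0.157 to 0.234.

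Tead1 (chr7:112679318-112906807) and Tead3 (chr17:28331671-28350817) encode DNA-binding partners of YAP and TAZ. Tead1 spanned 2222 to 6999 normalized counts in WT (median 4029) and 2631 to 8305 in OE/OE (median 3777), and Tead3 spanned 1638 to 2455 (median 1917) and 1627 to 2731 (median 1936). The genotypes overlapped over most of the range of both genes, and each gene had its highest mouse of either genotype in pair 5. The log2 changes were 0.07 ± 0.12 for Tead1 (95% interval -0.20 to 0.34) and 0.04 ± 0.07 for Tead3 (-0.12 to 0.19). Tead1 was at 0.19 without pair 1 (unadjusted limma p 0.066) and at 0.004 without pair 8.

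Ankrd1 (chr19:36111961-36120099), a target gene widely used as a readout of YAP and TAZ, was the 1 member with an estimate below 0. In WT it had 46.0, 53.3, 85.7, 54.4, 111, 107 and 186 normalized counts in pairs 1, 3, 4, 5, 6, 7 and 8, and in OE/OE 75.2, 22.6, 27.8, 90.6, 98.0, 83.4 and 86.0. It was higher in OE/OE in pairs 1 and 5 and lower in the other 5, and only the 2 lowest and 3 highest mice fell outside the range of the other genotype. The log2 change was -0.43 ± 0.30 (95% interval -1.10 to 0.25, limma p 0.187), the widest interval of the 10, and -0.24 without pair 4.

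**Figure D2:**
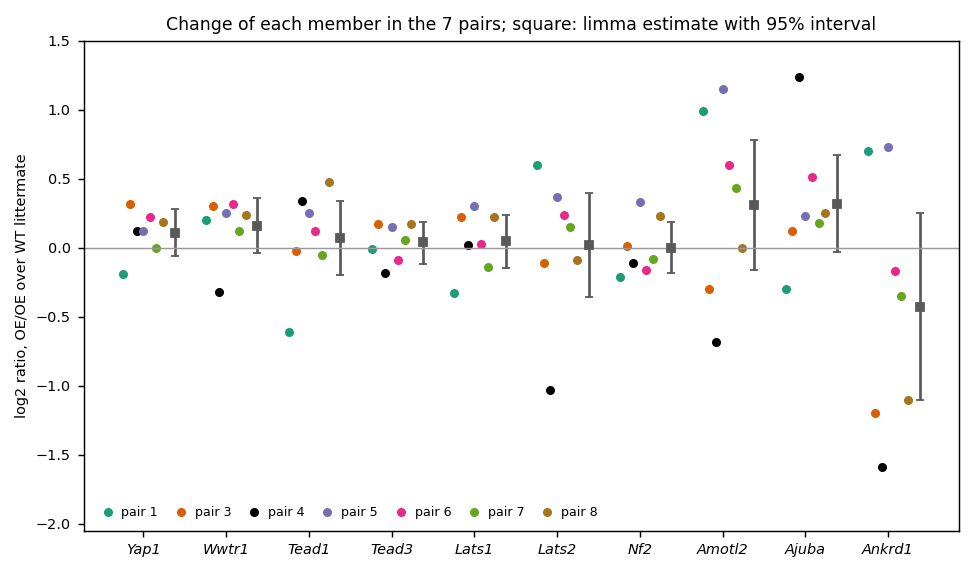
Log2 ratio of OE/OE over the WT littermate (vertical axis) for each member, 1 coloured point per pair, with a grey square and bar for limma's estimate and its 95% interval. All 10 intervals crossed 0, and the points of Lats2, Amotl2, Ajuba and Ankrd1 spread over more than 1.5 log2 units.

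For Yap1, Wwtr1, Tead1, Tead3, Lats1, Lats2 and Nf2, the 95% limits of the fold change lay between 0.78 and 1.32. The limits were wider for Amotl2 (0.90 to 1.72), Ajuba (0.98 to 1.59) and Ankrd1 (0.46 to 1.19). Paralogs were compared directly, by exact sign flips of the difference in their pair log2 ratios. The mean difference was -0.05 ± 0.25 for Yap1 minus Wwtr1, 0.03 ± 0.37 for Tead1 minus Tead3 and 0.03 ± 0.62 for Lats1 minus Lats2 (SD over 7 pairs), with exact p of 0.594, 0.781 and 0.875, each 0.875 after adjustment over the 3. With 7 pairs the smallest p this test can give is 0.0156.

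Levels of different genes were compared as normalized counts per kb of joined exons. Over the 14 libraries Wwtr1 was the highest, with a median of 2075 normalized counts per kb, above Yap1 (1106) in all 14. Yap1 was in turn above Nf2 (665) in all 14 libraries. Nf2, Lats1 (671) and Amotl2 (572) did not differ from their neighbours beyond the SD of the log2 difference between libraries, and neither did Tead1 (288) and Tead3 (287), nor Ajuba (140) and Lats2 (137). The step from Amotl2 down to Tead1 was larger than its SD, 0.77 ± 0.61 on the log2 scale, and so was the step from Tead3 to Ajuba, 1.05 ± 0.42. Ankrd1 was the lowest at 29.3 normalized counts per kb, below Lats2 by 2.42 ± 0.66 on the log2 scale. The order depended on the exon length used. With the longest coding transcript instead, Yap1 ranked above Wwtr1, Amotl2 and Tead3 ranked above Lats1, and Lats2 ranked above Ajuba, while Nf2 and Ankrd1 kept their ranks. Between paralogs, the Yap1 level per kb was a median 0.509 of that of Wwtr1, Tead1 was 1.08 of Tead3, and Lats1 was 5.08 times Lats2. By the longest coding transcript these medians were 1.11, 0.607 and 3.83. The ratio of Lats1 to Lats2 was 2.93 when Lats2 was given only the 4016 exon bases it does not share.

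**Figure D3:**
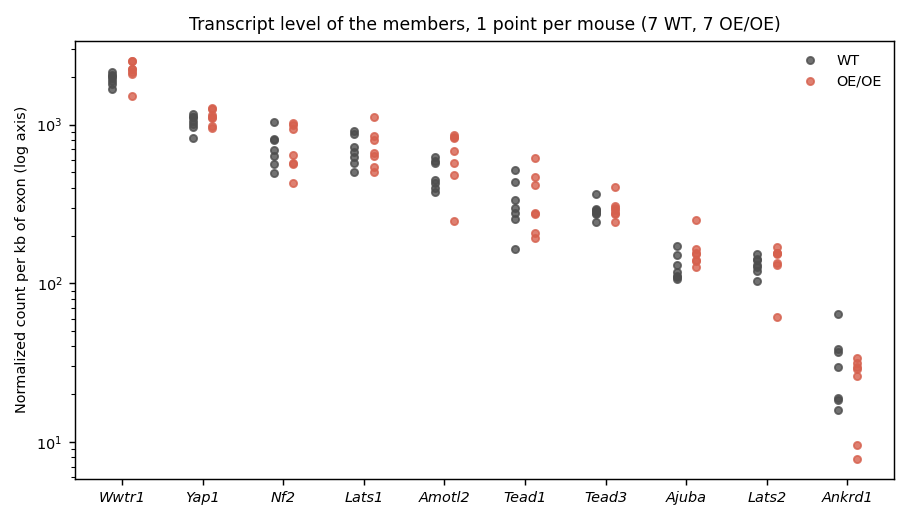
Normalized count per kb of joined exons (vertical axis, log scale) of the 10 members, ordered by mean log2 level, with 1 point per mouse (grey for WT, red for OE/OE). The medians run from 2075 for Wwtr1 to 29.3 for Ankrd1.

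More of the variance lay between litters than between genotypes for every member but Ajuba. On the log2 scale, the pair held 94.3% of the variance of Nf2, 90.2% of Tead1, 90.0% of Lats1 and 87.5% of Tead3, beside a median of 73.9% over all genes. Yap1 (66.6%), Ankrd1 (61.2%), Wwtr1 (57.5%), Lats2 (51.9%) and Amotl2 (49.2%) were below that median. Ajuba was the lowest, with 25.4% in the pair and 26.1% in genotype, while the median share of genotype over all genes was 1.43%. Its shares include the high OE/OE mouse of pair 4 (917 normalized counts). Without that pair the log2 change of Ajuba was 0.17 (unadjusted limma p 0.147). The SD between mice of a genotype was largest for Ankrd1, 0.79 on the log2 scale, more than that of 86.9% of all genes.

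The genotype ratios of Amotl2, Ankrd1 and Lats2 varied together over the pairs. For Amotl2 the log2 ratio of OE/OE over WT was 0.99, -0.30, -0.68, 1.15, 0.60, 0.43 and 0.00 in pairs 1, 3, 4, 5, 6, 7 and 8. For Ankrd1 it was 0.70, -1.20, -1.59, 0.73, -0.17, -0.35 and -1.10, and for Lats2 0.60, -0.11, -1.03, 0.37, 0.24, 0.15 and -0.09. Pairs 1 and 5 were the 2 highest and pair 4 the lowest for all 3 genes, and Amotl2 and Ankrd1 had the same order throughout. Of the 45 correlations between members, 7 had an exact permutation p of at most 0.05 and these 3 had an adjusted p under 0.05. Pearson's r was 0.98 for Amotl2 and Ankrd1 (rho 1.00, exact permutation p 0.000198 for r and 0.000397 for rho, adjusted p 0.00893), 0.91 for Lats2 and Amotl2 (rho 0.96, exact p 0.000992 and 0.00278, adjusted p 0.0149) and 0.87 for Lats2 and Ankrd1 (rho 0.96, exact p 0.000595 and 0.00278, adjusted p 0.0134). With the 2 pairs farthest from the median left out, r was 0.99, 0.98 and 0.98. Without pair 4, r was 0.98, 0.93 and 0.96 over 6 pairs. Many genes varied in this way: 1.76% of all other genes followed Amotl2 at least as closely as Lats2 did, and 6.71% followed Lats2 at least as closely as Amotl2 did. For Lats2 and Ankrd1, 2.42% of other genes followed Ankrd1 and 9.44% followed Lats2 at least as closely. For Amotl2 and Ankrd1 the shares were 0.031% and 0.0186%.

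Other measures moved with these 3 genes. Ccn1 (Cyr61), another target, had ratios of 1.05, -0.49, -0.97, 0.37, 0.65, 0.14 and -0.18 in the same order of pairs and correlated with Amotl2, Ankrd1 and Lats2 at r of 0.92, 0.90 and 0.92. Ccn2, also a target, had negative correlations with them that did not pass (r -0.62, -0.58 and -0.66, adjusted p of 0.206 to 0.260). The summed immediate-early genes known to be induced by tissue dissociation correlated at r of 0.92, 0.90 and 0.98, endothelial markers at 0.85, 0.81 and 0.98, and pericyte markers at 0.90, 0.86 and 0.96. These 12 of the 42 relations computed had an adjusted p under 0.05, from 0.0125 to 0.0243 by exact permutation. Without pair 4 the same 12 values of r were between 0.76 and 0.95 over 6 pairs. The adjustment then covered a smaller set, picked after the first results. It held the 3 genes with each other, with these 4 measures and with Ccn2. Its adjusted p therefore cannot be set against those over 42 relations. Within this set, 7 of the 12 did not have an adjusted p under 0.05 by exact permutation. These were Amotl2 with all 4 measures (0.05 to 0.065), Ankrd1 with pericyte markers (0.0596) and Ccn1 (0.055), and Lats2 with pericyte markers (0.0596). The immediate-early sum was 221551 to 388969 normalized counts in WT and 146606 to 563977 in OE/OE, the endothelial sum 53307 to 78994 and 18741 to 110997, and the pericyte sum 16208 to 34868 and 9106 to 36096. Their part in the levels of Amotl2, Ankrd1 and Lats2 was not tested. Summed skeletal muscle markers had r of 0.86, 0.83 and 0.77 with Amotl2, Ankrd1 and Lats2. These values were near those above but did not pass (adjusted p of 0.0622 to 0.0694 by exact permutation). Luminal markers had r of 0.67, 0.77 and 0.65 (adjusted p of 0.132 to 0.206 by exact permutation). Summed fibroblast markers had an r of 0.15 to 0.29 with the 3 genes (adjusted p of 0.583 to 0.725).

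**Figure D4:**
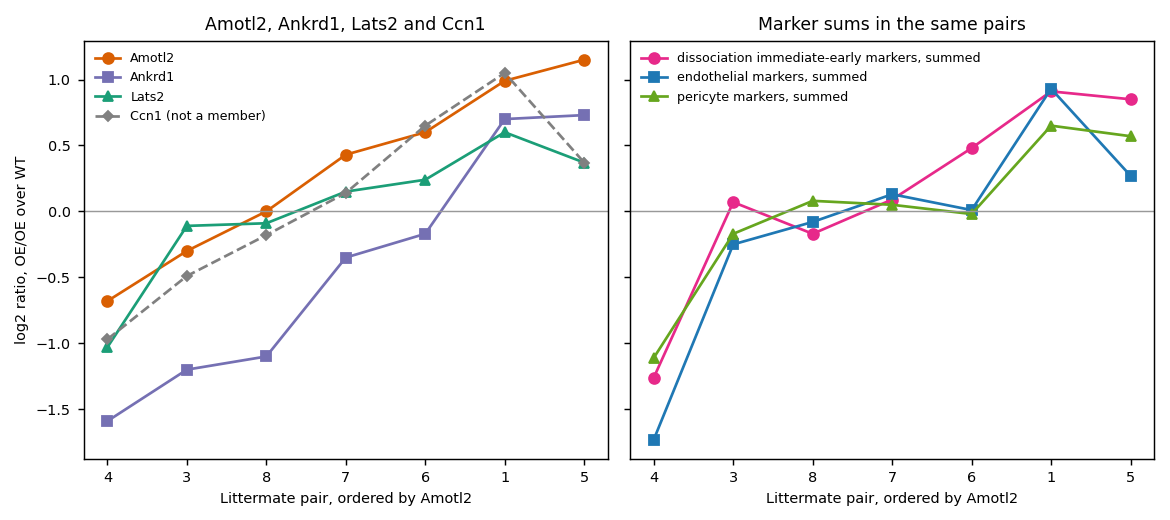
Log2 ratio of OE/OE over WT (vertical axes) in each littermate pair, ordered by Amotl2 (horizontal axes), for Amotl2, Ankrd1, Lats2 and Ccn1 on the left and for the summed immediate-early, endothelial and pericyte markers on the right. Pair 4 was the lowest and pairs 1 and 5 were at or near the top in both panels.

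More members were called with an adipocyte score in the fit than under any other alternative run. With it, Amotl2 was at 0.92 (unadjusted p 0.00148, adjusted p 0.125 in limma), Lats2 at 0.55 (0.00346, adjusted 0.129) and Wwtr1 at 0.29 (0.0472, adjusted 0.267), so 3 of 10 members were called, where 18.3% of all genes were called in that fit.

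Of 67 genes listed for the wider pathway, 64 were in the table, and 5 of them (7.81%) had an unadjusted p of at most 0.05 in limma, 3 higher and 2 lower, beside 3.81% of all genes. All of these had an adjusted p of 1.00 in limma. The median log2 change of the list was 0.04, with 44 of 64 above 0. Among 17 upstream scaffold genes, Amot, a relative of Amotl2, was higher by 0.22 ± 0.09 (SE), from 950 ± 165 to 1121 ± 255 normalized counts (SD, n = 7), with an exact sign-flip p of 0.0625. The scaffold genes with the highest level per kb were the atypical cadherin Fat1 (1221 normalized counts per kb) and the polarity protein Crb3 (857), with log2 changes of -0.03 and 0.09.

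None of the 13 kinase cassette genes passed, although 12 were above 0, within a range of -0.04 to 0.15. The largest estimates were 0.15 for Stk38l, a kinase related to Lats1, and 0.13 for Map4k4, which can act on the Lats kinases beside the Mst kinases (exact sign-flip p 0.0469, unadjusted limma p 0.0736). Mob1a, the co-activator of Lats, had the highest level per kb (1577 normalized counts per kb) and a log2 change of 0.01 ± 0.07.

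Among the 8 genes listed as brakes on the cassette, the kinase Mark4 was higher in all 7 pairs, by 0.27 ± 0.08, with an exact sign-flip p of 0.0156 and an unadjusted limma p of 0.00668. Its values were 1481 to 3107 normalized counts in WT and 1783 to 3621 in OE/OE. Rassf6, which binds the Mst kinases, was lower in 6 of 7 pairs, at -0.34 ± 0.10 on the log2 scale (exact sign-flip p 0.0312, unadjusted limma p 0.0076). Limd1, a LIM protein related to Ajuba and the most abundant of the brakes per kb (527 normalized counts per kb), had a log2 change of -0.04 ± 0.08.

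The 8 measured effectors had no call, and Wwtr1 (0.16) and Tead4 (-0.13 ± 0.10) had the largest log2 estimates. Of 22 measured YAP and TAZ targets, 10 lay above 0 and the median log2 change was -0.01. The RNA-binding protein gene Rbms3 was higher by 0.21 ± 0.08 (exact sign-flip p 0.0312), and Ccdc80, which encodes a secreted matrix protein, was lower, at -0.46 ± 0.18 (5 of 7 pairs below 0, with an exact sign-flip p of 0.109). Target calls went from 2 to 0 with a fibroblast score in the fit and without pair 3, 5 or 6. The most abundant targets per kb, Ccn1 (9636 normalized counts per kb) and Igfbp3 (2410), had wide intervals, with log2 changes of 0.08 ± 0.22 and 0.16 ± 0.40. The list was drawn up with earlier results of these data known, so its counts are a description.

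**Figure D5:**
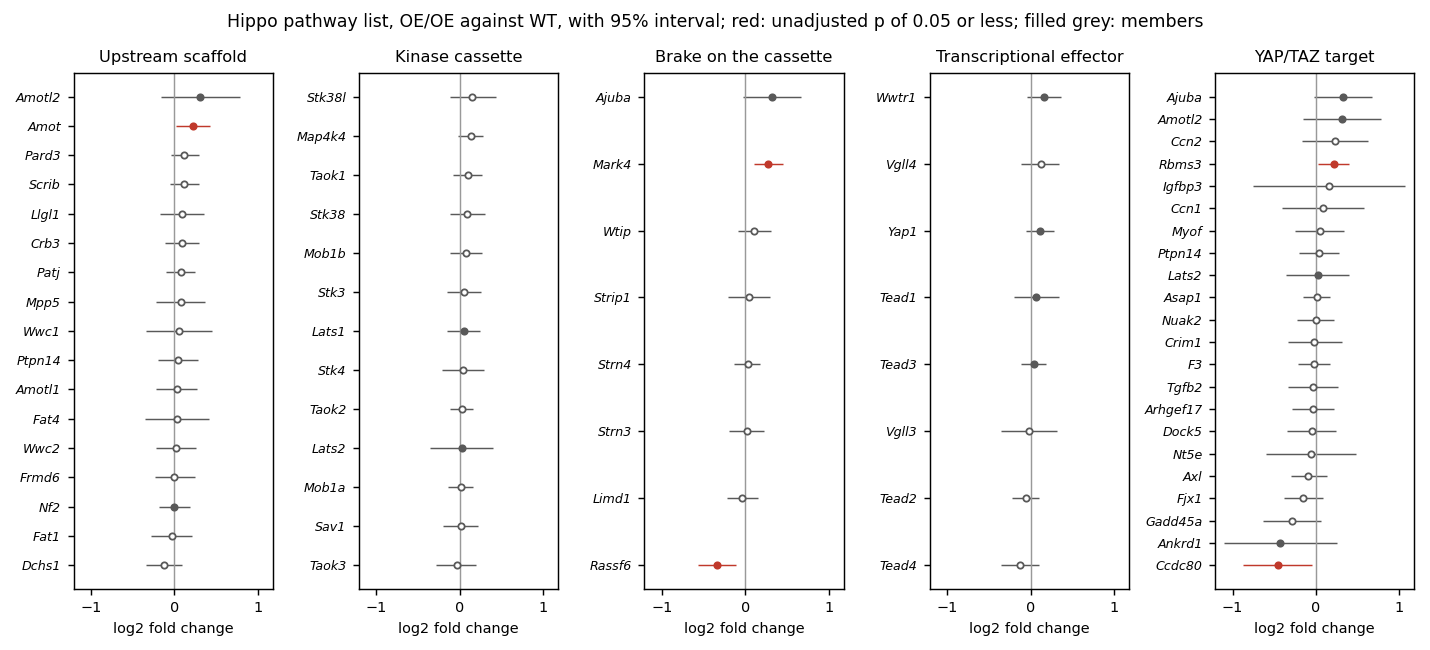
Log2 fold change of OE/OE against WT (horizontal axes) with limma's 95% interval for the measured genes of the pathway list, 1 panel per role. Filled grey points are the 10 members, open points are other genes, and red marks Amot, Mark4, Rassf6, Rbms3 and Ccdc80, the 5 genes called at the unadjusted threshold.

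The genes whose levels over the 14 libraries were most like those of a member, by Pearson's r of log2 values, were Tent4a (r 0.965), Ctdp1 (0.955) and Zxdb (0.946) for Yap1. For Wwtr1 they were Tle4 (0.934), Slc41a1 (0.930) and Tcf7l2 (0.928), and for Ankrd1 they were 2610301B20Rik (0.925), Trpc6 (0.907) and Dglucy (0.906). These were picked from all genes, and the libraries share litters, so the values only describe these 14 libraries.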

How the data were processed

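RNA was sequenced as paired reads from mRNA libraries of 14 mice. The authors mapped reads to mm10 with TopHat 2.0.10, counted fragments per GENCODE M21 gene with htseq-count (HTSeq 0.6.0), required 10 or more fragments in 7 or more libraries, divided by DESeq 1.18.0 size factors and pooled no samples. The deposited values are thus normalized counts, a linear signal without negative values. How reads shared by overlapping genes were treated, and whether strand was used, is not given in the sources used here.

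All values were whole multiples of 1 fragment (100% within a tolerance of 0.001), so the fragments behind them were recovered. Depth limits the low counts of Ankrd1 most, but the spread between mice was larger than counting error. Positions and exon lengths came from GENCODE M21 (GRCm38), in which all 16124 genes matched, and promoter windows from RefSeq.

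Log2(normalized count + 1) was fitted with limma 3.58.1 (trend) in R 4.3.3 with the littermate pair as a block, p-values were adjusted by Benjamini-Hochberg over all genes, and the unadjusted threshold was 0.05, as in the study's methods, whose paired test limma replaced. On this scale changes of low genes are understated. Labels and methods give the pairing. Deviations from the genotype mean correlated across genes by 0.171 to 0.748 within the 7 pairs (median 0.522). The 42 other combinations ran from -0.538 to 0.634 (median -0.151), so the 2 ranges overlapped. Single values were tested by exact two-sided sign flips of the 7 pairs, and correlations of pair ratios by all 5040 permutations. Alternatives were edgeR 4.0.16 (quasi-likelihood) and DESeq2 1.42.0 on recovered fragments, pseudocounts of 0.1 and 10, a mean of at least 50, no trend, no block, median centring, quantile normalization, a fibroblast, adipocyte or basal score in the fit, and leaving out each pair. The alternative exon lengths and the correlations without pair 4 or the 2 farthest pairs were chosen after seeing the data. The scripts were checked on simulated counts.

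The members and lists were chosen with earlier results of these data known. Named genes were the members, every pathway gene with an unadjusted p of 0.05 or less, the 2 largest changes and 2 highest levels per kb in each role, and the 3 genes most like Yap1, Wwtr1 and Ankrd1. Ccn2 and Gm49361 were named outside this rule, after their values were seen.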

Additional observations from a re-analysis of the deposited data

Results flagged for a closer look

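In 3 of the 20 groups examined (10 members in 2 genotypes), 1 mouse lay farther from its nearest neighbour than Dixon's critical value of 0.568 for 7 samples allows, where chance gives about 1.0 such group. All 3 were the OE/OE mouse of pair 4. Wwtr1 was lowest there at 7198 normalized counts, with the next mouse at 9969, a gap of 0.628 of the group's range on the log2 scale. Lats2 was lowest at 430 with the next at 904 (0.735), and Ajuba was highest at 917 with the next at 596 (0.631). The 3 flags come from 1 library, and its marker sums also stood apart (cell cycle 3.41 and endothelial -1.73 on the log2 scale against its littermate). Their part in these values was not tested.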

How the results depend on the processing

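The number of genes with an unadjusted p of 0.05 or less was 614, 182 without the littermate pair as a block, 344 with a fibroblast score and 2953 with an adipocyte score in the fit, and 381 to 1366 when a pair was left out (1196 without pair 1, 1366 without pair 4, 381 without pair 6). After adjustment DESeq2 called 19 genes where limma called 2. Members called were 0, also without the block, but 1 with median centring, 1 with the basal score, 3 with the adipocyte score and 0 to 2 with a pair left out, and the smallest adjusted p of any member in any fit was 0.125. Pathway list calls numbered 5, 3 without trend, 1 without the block, 1 with the fibroblast score, 12 with the adipocyte score and 2 to 9 with a pair left out (9 without pair 1, 8 without pair 4, 3 without pair 8, 2 without pair 3, 5 or 6). Signs turned with the adipocyte score for Yap1 (-0.019), Tead1 (-0.264), Lats1 (-0.093), Nf2 (-0.04), Ajuba (-0.156) and Ankrd1 (0.424). They turned with the fibroblast score for Tead1 (-0.062), Lats1 (-0.053) and Nf2 (-0.028), with the basal score for Lats2 (-0.035), and with quantile normalization, in the limma estimate and the mean pair ratio, for Tead3 (-0.005), Lats1 (-0.004), Nf2 (-0.05) and Lats1 minus Lats2 (-0.03). With a pair left out, Lats2 ranged from -0.079 to 0.192 and Nf2 from -0.053 to 0.038 (limma and mean pair ratio alike), Tead1 from 0.004 to 0.186, Lats1 from 0.003 to 0.108, Yap1 minus Wwtr1 from -0.129 to 0.009, Tead1 minus Tead3 from -0.049 to 0.139 and Lats1 minus Lats2 from -0.141 to 0.187. The cause was not tested. The log2 changes of Wwtr1 and Amotl2 kept their sign in all 19 alternative fits. Depth limits Ankrd1 most, at 22.6 to 186 normalized counts.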
